A study of Rattus norvegicus with 15 samples.

Results

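In cultured rat spermatogonial stem cells, a set of 62 genes was higher after the growth factor GDNF had been back in the medium for 8 h than after its withdrawal, with a rise of less than a set limit, or none, at 2 h. The set was chosen from group means of log2 array intensity. A member had an 8 h mean at least 0.8 above the withdrawal mean and a 2 h mean less than 0.3 above it. Of 9002 named genes with a tested probe set, 134 met the 8 h condition and 71 met both, and 9 of the 71 were set aside by a list of symbols and symbol prefixes (such as the prefixes of solute carriers, collagens and annexins). A probe set was tested where its intensity reached 16 (log2 of 4) on at least 3 of the 15 arrays, and each gene was read from the brightest of its tested probe sets. The arrays of withdrawal, 2 h and 8 h therefore chose the members, and their values for these genes are given as a description without a test. The 4 h and control arrays entered only the low-value filter and the choice of probe set, which read all 15 arrays, so 4 h against control is the comparison that is tested for the members.

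Each group comprised 3 independent cultures with 1 array each, and all cultures had spent 1 month in serum-free medium with GDNF. Control cells kept GDNF. Withdrawal cells spent 18 h without it, and the 3 remaining groups were given GDNF back for 2, 4 or 8 h after the same 18 h. The sources used here do not give the strain or age of the rats. No group here was left without GDNF through the hours of replacement. The return of GDNF and the further hours in culture therefore cannot be told apart. Per array, 50.2% to 50.5% of probe sets lay at or over the level of 16. Of 14 markers of undifferentiated spermatogonia and germ cells with a probe set, 10 were over the low-value filter (Ret, Id4, Sall4, Etv5, Epcam, Cdh1, Taf4b, Foxo1, Sohlh1 and Uchl1), with a mean log2 intensity of 10.05 to 10.16 by group. Single markers moved within that mean: Ret went from 12.07 in control to 10.92 at 4 h, and Sall4 from 8.93 to 9.85. Gfra1, Lin28a, Nanos3 and Neurog3 were under the filter. Of 7 markers of differentiating, meiotic and later germ cells with a probe set, Kit, Sycp1 and Sycp3 were over it, at means of 9.40 to 9.75 by group. Of 18 mesenchymal markers 12 were over the filter, and their average was 8.21 ± 0.21 in control, 8.10 ± 0.39 in withdrawal, 7.68 ± 0.13 at 2 h, 7.96 ± 0.25 at 4 h and 8.34 ± 0.12 at 8 h (SD, n = 3). Of 10 Sertoli cell markers with a probe set 6 were over it, at means of 6.95 in control and 6.60 to 6.70 in the other groups. Among them Dhh stood at 6.01 in control and 3.96 to 4.06 in the other groups. After withdrawal the means of Wt1 and Rhox5 were also lower than in control, while those of Amhr2, Cldn11 and Clu were higher. Of the 6, only 1 was called lower and 1 higher (limma adjusted p under 0.05). Wt1 stood near the filter level, at 4.03 after withdrawal and 5.13 at 4 h. All 11 immune and blood markers with a probe set and all but Acta2 of 10 Leydig or peritubular markers were under the filter.

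GDNF is the niche factor that keeps spermatogonial stem cells renewing themselves. It binds the co-receptor GFRA1, which presents it to the receptor tyrosine kinase RET, and RET passes the signal on through SRC family kinases, the PI3K and AKT pathway and the RAS and ERK pathway. A growth factor first switches on immediate early genes, many of which encode transcription factors of the EGR, FOS and JUN families, without new protein synthesis. A later wave of genes follows, whose transcription can depend on those newly made factors, and it often includes genes for adhesion, the cytoskeleton, secreted proteases and their inhibitors.

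The members' promoter sequences are shown for 5 genes whose windows held letters of the EGR or AP-1 motifs, the motifs of factors that immediate early genes encode. RefSeq windows from 250 bases before to 50 after the start (rat assembly GRCr8) were matched for 49 of the 62 members, and both strands were searched. The AP-1 letters TGANTCA were in 4 of the 49 windows (8.16%), against 4.45% of 7669 windows of tested genes and 7.33% of all 27457 windows. The EGR letters GCGNGGGCG were in 10 (20.4%), against 10.9% of tested genes and 5.29% of all windows. They can overlap the GC box GGGCGG, which was in 61.2% of members' windows, 66% of all tested and 34.9% of all windows. The remaining motifs are set against tested genes and then all windows. The ETS letters CGGAAG were in 14.3% against 35.5% and 17.4%, and the E-box CACGTG in 6.12% against 10.6% and 6.65%. The TCF/LEF letters CTTTGAA were in 4.08% against 3.23% and 5.31%, and the TATA box TATAAA in 2.04% against 6.13% and 14.3%. The CRE TGACGTCA was in 0 of 49 windows against 3.65% and 1.91%, and the CArG box in 0 against 1.34% and 1.64%. These are matches of letters, described without a test. In the following stretches, each 5′ to 3′ on the gene's own strand and wholly before the start, capitals mark the AP-1 letters of Tiam1 (chr11:42646083-42646202, minus strand), Dmkn (chr1:95141470-95141619, plus strand) and Procr (chr3:164714477-164714726, plus strand). They mark the EGR letters of Hivep2 (chr1:10179282-10179401, plus strand) and Tcf7l2 (chr1:264791185-264791334, plus strand).
Tiam1: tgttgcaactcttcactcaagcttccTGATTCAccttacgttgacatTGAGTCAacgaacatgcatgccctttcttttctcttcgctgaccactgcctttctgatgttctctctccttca
Dmkn: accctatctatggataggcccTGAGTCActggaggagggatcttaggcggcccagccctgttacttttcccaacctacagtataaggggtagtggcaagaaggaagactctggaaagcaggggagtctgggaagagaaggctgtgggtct
Procr: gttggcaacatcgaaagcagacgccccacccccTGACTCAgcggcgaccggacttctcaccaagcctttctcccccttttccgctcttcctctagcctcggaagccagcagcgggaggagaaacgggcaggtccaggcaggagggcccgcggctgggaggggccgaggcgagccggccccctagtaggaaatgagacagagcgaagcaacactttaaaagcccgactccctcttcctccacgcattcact
Hivep2: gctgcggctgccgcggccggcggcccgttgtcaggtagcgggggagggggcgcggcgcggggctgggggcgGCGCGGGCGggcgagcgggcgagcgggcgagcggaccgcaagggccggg
Tcf7l2: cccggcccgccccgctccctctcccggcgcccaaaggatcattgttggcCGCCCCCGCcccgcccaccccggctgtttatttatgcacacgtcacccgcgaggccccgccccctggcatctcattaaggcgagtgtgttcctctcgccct
The window of Tiam1 held the AP-1 letters at 2 places, with first bases 94 and 73 bases before the start. Those of Dmkn, Procr, Hivep2 and Tcf7l2 began 129, 217, 49 and 101 bases before it. Lmna also held the AP-1 letters, across its start.

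The members' levels were low in both the withdrawal and the 2 h arrays, and higher from 4 h or 8 h on. The rule gives this shape to withdrawal, 2 h and 8 h. Control and 4 h did not enter it, but below they are set against withdrawal arrays, which it chose as low. In 61 of 62 members the withdrawal mean was below the control mean, with a median log2 difference of -0.70 against 0.02 over all tested genes. Unc5cl was the exception. The limma fit placed 46 members below control after withdrawal, where 9.67% of all tested probe sets were, and 0 above, where 11.4% were, and the 3 withdrawal arrays lay wholly under the 3 control arrays for 51 members (15.5% of all tested). At 2 h, 4 members were called above withdrawal (11.9% of all tested probe sets) and 2 below (14.2%), among differences that the rule keeps under 0.3. At 4 h, 47 members were above withdrawal (14.6% of all tested) and 51 did not overlap it (20.1%), and at 8 h 61 were (9.62%), all but Cacna1h, whose arrays overlapped. The withdrawal, 2 h and 8 h arrays entered the rule, so nothing is read from these counts. In bulk RNA, fewer cells of a type and less RNA per cell cannot be told apart.

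**Figure D1:**
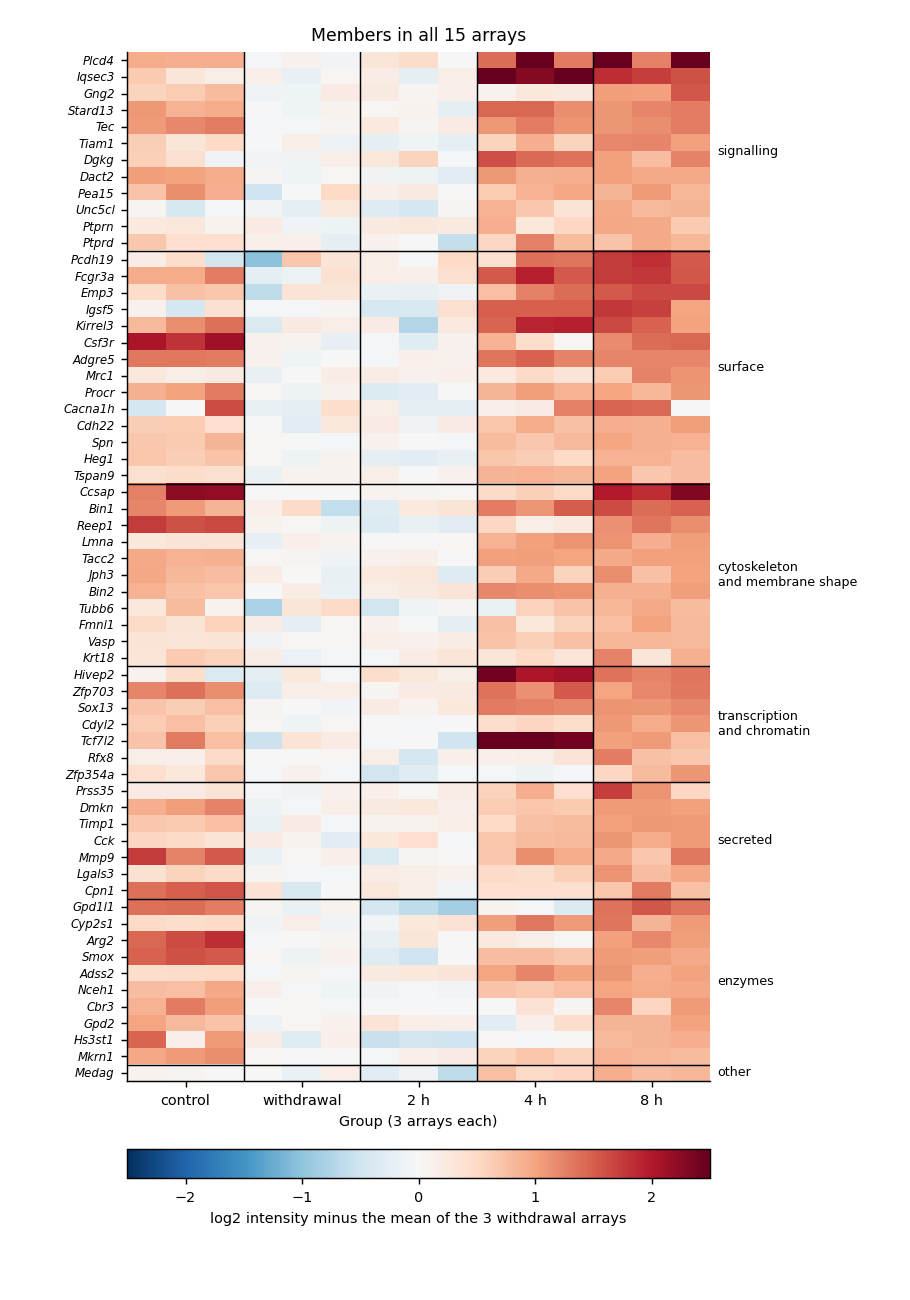
Heat map of log2 intensity minus the mean of the 3 withdrawal arrays for all 62 members (rows, ordered by role) in the 15 arrays (columns, 3 per group), with the colour scale ending at 2.5 either way. The withdrawal and 2 h columns are pale by the rule, while the 4 h columns run from pale (Gpd1l1, Arg2, Zfp354a) to darker than the 8 h columns (Hivep2, Tcf7l2, Iqsec3).

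After 4 h of GDNF, 16 members were higher than in control cells that had never lost it, 16 were lower and 30 were not past the threshold (limma adjusted p under 0.05 over all 15856 tested probe sets). That is 25.8% of members in each direction, where 11.2% of all tested probe sets were higher and 10.4% lower, 21.6% in all. The median member stood at a log2 difference of 0.07, against -0.00468 over all tested genes. The 4 h and control arrays did not overlap for 23 members that were higher at 4 h (18.3% of all tested) and 17 that were lower (16.2%). For 4 h against control, a rise or fall means a difference from control, not a change since withdrawal. After withdrawal all members but Unc5cl already had means below control. The spread of the members was wider than usual, with a median residual SD of 0.179 on the log2 scale against 0.102 over all tested probe sets. By role, signalling genes had 4 higher and 1 lower of 12, surface genes 3 and 1 of 14, cytoskeleton and membrane genes 3 and 2 of 11, transcription and chromatin genes 3 and 2 of 7, secreted proteins 0 and 3 of 7, and enzymes 2 and 7 of 10. The roles were assigned after earlier results were known, and their differences were not tested.

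**Figure D2:**
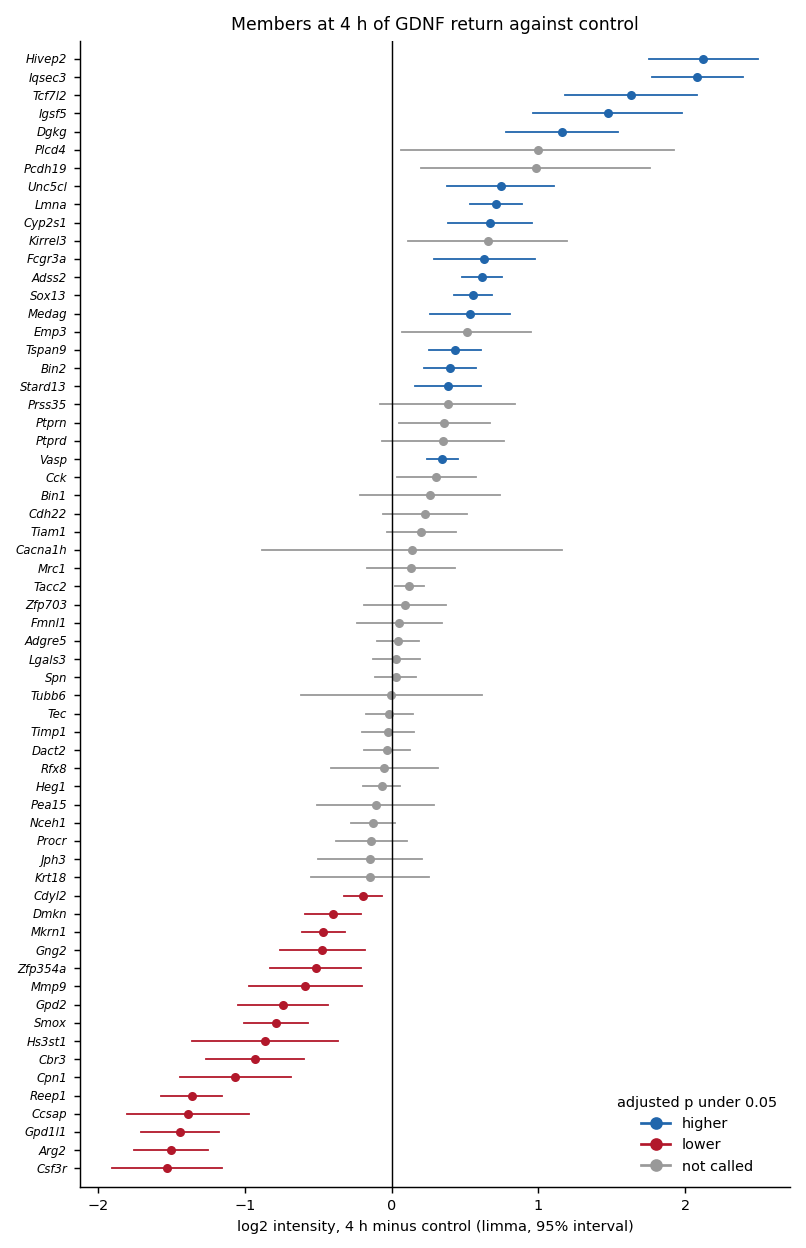
Log2 difference between 4 h of GDNF return and control for each of the 62 members (points), with the 95% interval of the limma fit (lines). The 16 members called higher than control (blue) run from Vasp at 0.34 to Hivep2 at 2.12, and the 16 called lower than control (red) from Cdyl2 at -0.19 to Csf3r at -1.53.

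Of the transcription and chromatin genes, 3 of 7 rose at 4 h against control and 2 fell. Hivep2, a large zinc finger factor that binds enhancer elements of the NF-kappaB type, had intensities of 53.1, 67.6 and 38.5 in control, 42.6, 60 and 48.1 after withdrawal, 67.9, 60.8 and 55 at 2 h, 263, 203 and 214 at 4 h and 127, 117 and 126 at 8 h. Every 4 h array lay above every other array, and the 8 h arrays lay between 4 h and the rest. Hivep2 rose 4.36-fold over control at 4 h (log2 2.12 ± 0.17, SE; adjusted p = 7.92e-07). Tcf7l2, a TCF/LEF factor of the Wnt pathway, stood at 68.9, 102 and 70.3 in control, 28.8, 52.9 and 48 after withdrawal and 40.4, 41.6 and 29.8 at 2 h. It then reached 239, 276 and 224 at 4 h and stood at 84.7, 87.1 and 70 at 8 h. The 4 h arrays stood alone, 3.1-fold over control (log2 1.63 ± 0.21; adjusted p = 6.98e-05), while the 8 h arrays overlapped the control arrays. Sox13, an SRY-box factor, rose 1.47-fold over control at 4 h, from 424, 397 and 436 to 635, 614 and 595 (adjusted p = 1.66e-05), with 8 h arrays of 564, 551 and 594 just under the 4 h ones.

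The other 4 factors did not rise over control at 4 h. Zfp703, a zinc finger corepressor, was 2.25-fold higher at 8 h than after withdrawal and did not pass the test at 4 h against control (log2 0.09 ± 0.13; adjusted p = 0.673). Rfx8, of the RFX family, stood at 25.5, 25.2 and 32.3 in control and 25.3, 25.5 and 29 at 4 h, and its 8 h arrays of 56, 38.5 and 36.7 lay above all of these. Zfp354a, a KRAB zinc finger gene, was 1.43-fold lower at 4 h than in control (adjusted p = 0.0202), with 4 h arrays of 17.4, 16.6 and 17.6 as low as the withdrawal arrays of 17.3, 19.4 and 17.5. Its 8 h arrays were 25.9, 31.4 and 38.7. The call of Zfp354a was lost without control replicate 3 (adjusted p = 0.0919) or 4 h replicate 2 (adjusted p = 0.0577). Cdyl2, a chromodomain protein, was 1.14-fold lower at 4 h (adjusted p = 0.0343), a call lost without control replicate 1 or 2 or 4 h replicate 1 or 3 (adjusted p = 0.0543, 0.132, 0.101 and 0.0969). At 8 h it was 1.3-fold over control, with arrays that did not overlap.

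Of the signalling genes, 4 of 12 rose above control at 4 h and 1 fell. Iqsec3, an exchange factor for ARF GTPases, had intensities of 38.4, 30.1 and 27 in control, 26.4, 21.5 and 25.3 after withdrawal and 27.5, 20.5 and 27.1 at 2 h. It stood at 145, 119.6 and 137 at 4 h and 87.2, 80.3 and 73.7 at 8 h, so the 4 h arrays were highest and the 8 h arrays next, apart from all others. Iqsec3 rose 4.24-fold over control at 4 h (log2 2.08 ± 0.15; adjusted p = 1.58e-07). Dgkg, a kinase that turns diacylglycerol into phosphatidic acid, had 29.4, 25.5 and 18.4 in control, 18.4, 18.4 and 21.7 after withdrawal, 23.6, 28.7 and 19 at 2 h, 59.4, 52 and 50.1 at 4 h and 39.4, 33.1 and 46 at 8 h. It rose 2.24-fold over control at 4 h (log2 1.16 ± 0.18; adjusted p = 0.000319), and its 8 h arrays lay under the 4 h arrays and over the control arrays. Unc5cl, a death-domain protein related to netrin receptors, rose 1.67-fold (adjusted p = 0.00595), and its level after withdrawal was not below control (withdrawal 35.8, 32.1 and 45.2, control 39.4, 28.4 and 36.4). Stard13, a protein with a START lipid-transfer domain, rose 1.3-fold, from 162, 139 and 146 to 207, 206 and 172 (adjusted p = 0.0179). That call was lost without control replicate 2 or 3 or 4 h replicate 1 or 2 (adjusted p = 0.0656, 0.054, 0.0711 and 0.0627).

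Other signalling genes had arrays that overlapped control at 4 h. Tec, a non-receptor tyrosine kinase, stood at 564, 619.8 and 662 in control, 261, 267 and 285 after withdrawal, 322, 286 and 311 at 2 h, 576, 659 and 591 at 4 h and 579, 602 and 655 at 8 h. Its 4 h and 8 h arrays overlapped control (4 h minus control log2 -0.01 ± 0.07, 95% interval -0.17 to 0.15; adjusted p = 0.917). Dact2, which binds Dishevelled, followed the same course, with 346, 338 and 322 in control, 177, 157 and 173 after withdrawal and 356, 314 and 315 at 4 h (log2 -0.03 ± 0.07, interval -0.19 to 0.12). Tiam1, an exchange factor for the GTPase Rac and 1 of the genes whose promoter is printed, went further at 8 h. Its arrays were 225, 182 and 209 in control, 147, 164 and 134 after withdrawal, 125, 137 and 127 at 2 h, 217, 276 and 218 at 4 h and 339, 343 and 302 at 8 h. Only the 8 h arrays lay apart above control, by 1.6-fold, and 4 h did not pass the test (adjusted p = 0.205).

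Among the last signalling genes, the G protein subunit Gng2 was the late one. It was 1.39-fold lower at 4 h than in control (adjusted p = 0.0211; 0.0824 without control replicate 3 and 0.0766 without 4 h replicate 1). Its 8 h arrays of 53.7, 53.4 and 76.5 lay above those of control, 38.5, 40.8 and 45.2. Plcd4, a phospholipase C, had the largest 8 h difference of the set, but its arrays were all under 16 in control (11.5, 11.3 and 11.3), after withdrawal (5.92, 6.49 and 5.72) and at 2 h. Against that level its 8 h arrays of 41.3, 14.5 and 57.3 were at least 2.03-fold higher than after withdrawal. Its 4 h arrays of 15.9, 48.9 and 14.9 spread widely and did not pass the test against control (adjusted p = 0.122; 0.0459 without 8 h replicate 2). The phosphatase-like gene Ptprn likewise did not pass (adjusted p = 0.0939; 0.0245 without 4 h replicate 2), nor did the receptor phosphatase Ptprd (adjusted p = 0.228), whose withdrawal arrays were all under 16 and whose 8 h arrays were at least 1.39-fold higher.

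Surface proteins made the largest group, in which 3 of 14 rose at 4 h against control, 1 fell and 10 did not pass the test. Igsf5, an immunoglobulin-family adhesion protein of cell junctions, stood at 16.8, 11.6 and 20.4 in control, 15.1, 15.3 and 16.3 after withdrawal and 11.8, 11.9 and 20.7 at 2 h, all close to the filter level of 16. It stood at 44, 43.9 and 44 at 4 h and 53.4, 50.9 and 31 at 8 h, with no overlap with the earlier groups. It rose 2.77-fold over control at 4 h (log2 1.47 ± 0.24; adjusted p = 0.000483). Fcgr3a, a receptor for the constant part of antibodies, stood at 74.8, 74.5 and 95.3 in control, 33.3, 35.8 and 51.5 after withdrawal, 44, 43 and 52 at 2 h, 115, 151 and 114 at 4 h and 133, 133 and 116 at 8 h. Both later groups lay above control, and the 1.55-fold rise at 4 h (adjusted p = 0.0117) did not pass without 4 h replicate 2 (adjusted p = 0.0551). Tspan9, a tetraspanin, rose 1.35-fold at 4 h (adjusted p = 0.00199), from 299, 312 and 299 to 408, 417 and 401.

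Csf3r, the receptor for the cytokine G-CSF, ran the other way. Its arrays were 50, 42.2 and 52.5 in control, 13, 12.9 and 10.6 after withdrawal, 11.8, 9.78 and 13.1 at 2 h, 22.1, 16.5 and 12.6 at 4 h and 27.4, 32 and 32.6 at 8 h. The withdrawal and 2 h arrays were all under 16, so withdrawal was at least 3-fold below control. At 4 h Csf3r was still 2.89-fold under control (log2 -1.53 ± 0.18; adjusted p = 2.39e-05), and its 8 h arrays lay between withdrawal and control without touching either.

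Adgre5 (CD97), an adhesion G protein-coupled receptor, was low after withdrawal and at 2 h and near control later. Its arrays were 644, 639 and 632 in control, 278, 239 and 257 after withdrawal, 254, 282 and 278 at 2 h, 650.1, 712 and 611 at 4 h and 603, 598 and 600.5 at 8 h. Its 4 h arrays overlapped control (log2 0.04 ± 0.07, interval -0.10 to 0.18; adjusted p = 0.719), and its 8 h arrays lay just below. Procr, the endothelial protein C receptor, known as a marker of stem cells in several tissues, had 365, 398 and 485 in control, 202, 180.2 and 213 after withdrawal, 155, 164 and 196 at 2 h and 356, 408 and 362 at 4 h, again overlapping the control values (adjusted p = 0.416). Spn (CD43), a mucin-like protein of white blood cells, Heg1, which anchors junctions between endothelial cells, and the cadherin Cdh22 also did not pass at 4 h (adjusted p = 0.807, 0.458 and 0.246). Their 8 h arrays did lie above control without overlap, by 1.14-, 1.12- and 1.32-fold.

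Several members are best known from leukocytes, among them Fcgr3a, Csf3r, Spn, Adgre5, the mannose receptor Mrc1, the kinase Tec and Bin2. The 11 general leukocyte and blood markers with a probe set (Ptprc, Cd68, Csf1r, Lyz2, Cd14, Hbb, C1qa, C1qb, Aif1, Laptm5 and Tyrobp) were all under the low-value filter. Mrc1 itself was under 16 in every array but those of 8 h (17, 25.8 and 24), at least 1.37-fold above withdrawal. Kirrel3, a nephrin-like adhesion protein, was 2.6-fold higher at 8 h than after withdrawal and did not pass the test at 4 h against control, although no array overlapped (adjusted p = 0.0809; 0.0347 without 2 h replicate 2). The calcium channel gene Cacna1h scattered within groups, with 11, 14.8 and 46.4 in control and 40.8, 40 and 14.8 at 8 h, and was the only member whose 8 h and withdrawal arrays overlapped.

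Of the genes for the cytoskeleton and membrane shape, 3 of 11 rose and 2 fell at 4 h against control. Lmna, which encodes lamins A and C of the nuclear envelope, had 982, 1025 and 1025 in control, 711, 897 and 869.9 after withdrawal, 831, 821 and 849.9 at 2 h, 1509, 1669.7 and 1797 at 4 h and 1787, 1539 and 1699 at 8 h. It rose 1.64-fold at 4 h (log2 0.71 ± 0.08; adjusted p = 2.36e-05) and stayed there, while its dimmer second probe set was at a log2 difference of 0.09. Bin2, a BAR-domain protein that bends membranes, rose 1.32-fold at 4 h (adjusted p = 0.00295), from 574, 525 and 509.7 to 724, 707 and 684, and its 8 h arrays of 579, 582 and 652 lay between. Vasp, which speeds the growth of actin filaments, rose 1.27-fold, from 836, 812 and 833 to 1078, 986 and 1089 (adjusted p = 0.000188), and stood higher again at 8 h at 1172, 1166 and 1149.9.

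Ccsap, a centriole and spindle protein, and Reep1, which shapes the endoplasmic reticulum, were the slow members of the group. Ccsap had 24.3, 47.3 and 47.2 in control, 10.1, 10.1 and 10 after withdrawal, 10.7, 10.6 and 10.5 at 2 h, 14, 15.3 and 14 at 4 h and 39.8, 36.5 and 50.1 at 8 h. All arrays of withdrawal, 2 h and 4 h were under 16, so 4 h was at least 2.37-fold under control (adjusted p = 0.000153) and 8 h at least 2.61-fold over 4 h. Reep1 stood at 488, 443 and 462 in control, 156, 149 and 135 after withdrawal, 115, 129 and 121 at 2 h, 210.1, 161 and 173 at 4 h and 323, 369.7 and 326 at 8 h. It was 2.57-fold under control at 4 h (log2 -1.36 ± 0.10; adjusted p = 1.71e-07), and the 8 h arrays were still all below control.

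Tacc2, a protein of centrosomes and microtubules, was the brightest member, with 3020.2, 2829 and 2878 in control, 1578, 1625 and 1468 after withdrawal, 1675, 1709.5 and 1557 at 2 h, 3164, 3227 and 3097 at 4 h and 3016, 3154 and 3152 at 8 h. It did not pass the test at 4 h (log2 0.12 ± 0.05; adjusted p = 0.0759), although the 4 h arrays all lay above control. Bin1, a relative of Bin2, was 2.83-fold higher at 8 h than after withdrawal, and its 4 h arrays overlapped control (adjusted p = 0.449). The formin Fmnl1, the keratin Krt18 and the junctophilin Jph3 did not pass at 4 h either (adjusted p = 0.829, 0.621 and 0.575).

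Among secreted proteins, 3 of 7 were lower at 4 h than in control and 0 were higher. Cpn1, a subunit of a carboxypeptidase that trims peptides in plasma, had 50.1, 54.3 and 57.1 in control, 24.8, 14.8 and 19.5 after withdrawal, 25.7, 25.7 and 25.7 at 4 h and 31, 47.5 and 32.2 at 8 h. It was 2.09-fold under control at 4 h (adjusted p = 0.000624), and the 8 h arrays too were all below control. Mmp9, a gelatin-cleaving protease, stood at 51.9, 36.6 and 44.9 in control, 13.7, 15.8 and 17 after withdrawal and 24.8, 34.4 and 29.4 at 4 h. The 4 h value was 1.5-fold under control (adjusted p = 0.031), a call lost without control replicate 1 or 3 or 4 h replicate 1 or 3 (adjusted p = 0.115, 0.079, 0.125 and 0.0664). Dmkn, a secreted protein of epithelia, was 1.32-fold under control at 4 h (adjusted p = 0.00542) and stood at 228, 228 and 220.4 at 8 h, among the control values of 204, 222 and 254.

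Timp1, an inhibitor of metalloproteases such as MMP9, overlapped the control arrays at 4 h and lay above them at 8 h. Its arrays were 1149, 1142 and 1216 in control, 641, 829.8 and 711 after withdrawal, 771, 764 and 808 at 2 h, 1016, 1194 and 1247 at 4 h and 1467, 1531 and 1507 at 8 h (4 h against control adjusted p = 0.861). Lgals3, the sugar-binding galectin-3, followed that order, with 624, 699 and 664 in control, 502, 465 and 466 after withdrawal, 668, 645 and 720.1 at 4 h and 1046, 819 and 929 at 8 h (adjusted p = 0.808). The peptide hormone gene Cck and the protease-like gene Prss35 did not pass the test at 4 h (adjusted p = 0.102 and 0.229). The withdrawal arrays of Prss35 were all under 16, and 8 h was at least 1.91-fold higher.

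Enzymes were the group with the most members below control at 4 h: 7 of 10 were lower than in control and 2 were higher, with a median log2 difference of -0.76 (-0.60 with Cbr3, whose 4 h arrays were all under 16, at its bound). All 10 enzymes had means below control after withdrawal. Arg2, the mitochondrial arginase, which makes ornithine, stood at 393, 452 and 524 in control, 140.3, 143 and 152 after withdrawal, 127, 178 and 147 at 2 h, 171, 161 and 148 at 4 h and 295, 333 and 298 at 8 h. It was 2.84-fold under control at 4 h (log2 -1.51 ± 0.12; adjusted p = 4.94e-07), and the 8 h arrays lay between withdrawal and control. Smox, the spermine oxidase, had 275, 296 and 284 in control, 100.4, 90.1 and 106 after withdrawal, 168, 168 and 159 at 4 h and 206, 203 and 191 at 8 h. It was 1.73-fold under control at 4 h (adjusted p = 6.89e-05), with 4 h above withdrawal, 8 h above 4 h and control above 8 h, all without overlap. Ornithine is the starting point of polyamine synthesis, and spermine oxidase breaks a polyamine down.

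Gpd1l1 and Gpd2 encode glycerol-3-phosphate dehydrogenases, a cytosolic type and the mitochondrial one, which together can shuttle electrons into mitochondria. Gpd1l1 had 177, 179 and 163 in control, 71.4, 60.6 and 71.7 after withdrawal, 50.1, 43.8 and 37.8 at 2 h, 72.4, 66.6 and 53.5 at 4 h and 173, 198 and 172 at 8 h. At 4 h it was 2.72-fold under control (log2 -1.44 ± 0.13; adjusted p = 1.36e-06) and overlapped the withdrawal arrays, while the 8 h arrays were among or above the control values. Gpd2 had 78.8, 70.5 and 65.8 in control, 36, 41.2 and 43 after withdrawal, 33.2, 43.7 and 53.9 at 4 h and 71.9, 71.6 and 80.1 at 8 h, the same order, and was 1.67-fold under control at 4 h (adjusted p = 0.00194).

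Hs3st1, a heparan sulfate sulfotransferase, was 1.82-fold under control at 4 h (adjusted p = 0.0156; 0.0672 without control replicate 1 and 0.062 without control replicate 3). Its control arrays of 54.7, 21.7 and 41.4 spread widely, while the 4 h arrays were 20.3, 19.6 and 20.4. The ubiquitin ligase Mkrn1 was 1.38-fold under control at 4 h (adjusted p = 0.00023) and stayed below it at 8 h. The carbonyl reductase Cbr3 was at most 20.4 on any array, and its withdrawal, 2 h and 4 h arrays were all under 16, so its fall at 4 h (adjusted p = 0.000673) comes to at least 1.09-fold. With values under 16 set to 16 that call was lost (adjusted p = 0.259). Adss2, which makes the precursor of AMP, and the cytochrome P450 Cyp2s1 were the enzymes that rose, by 1.53- and 1.59-fold (adjusted p = 9.32e-06 and 0.00232). Adss2 went from 623, 634 and 648 in control to 915, 1078 and 930.3 at 4 h and stood at 992, 869 and 924 at 8 h. Nceh1, a cholesteryl ester hydrolase, did not pass (adjusted p = 0.227). Medag, a gene of fat cell differentiation placed in no role, rose 1.45-fold (adjusted p = 0.00751), but its 2 dimmer probe sets stood at log2 differences of -0.51 and -1.07.

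**Figure D3:**
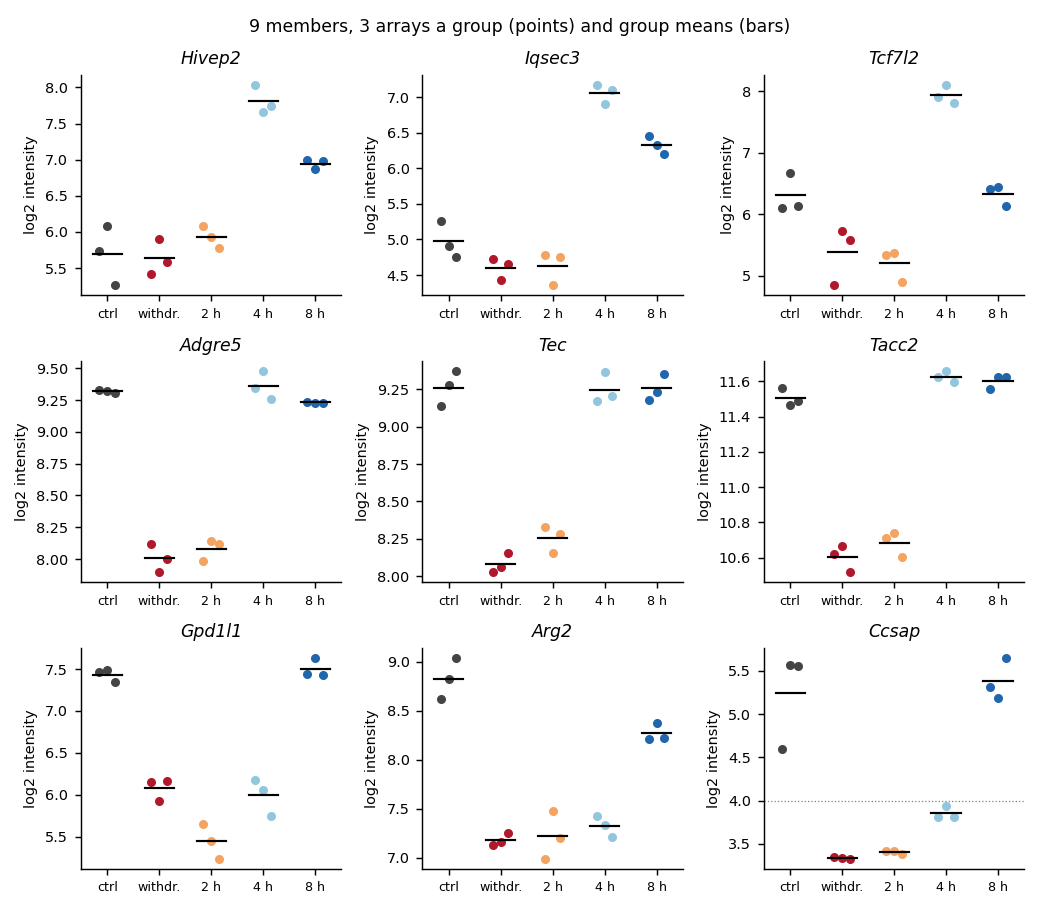
Log2 intensity of 9 members in each array (points, 3 per group) with group means (bars), each panel with its own axis, which does not start at 0; the dotted line for Ccsap is the filter level of log2 4. Hivep2, Iqsec3 and Tcf7l2 are highest at 4 h, Adgre5, Tec and Tacc2 lie near the control level at 4 h, and Gpd1l1, Arg2 and Ccsap stay far below control at 4 h.

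The members thus differed in how much of their 8 h difference from withdrawal was present at 4 h. No share is given for 7 members whose withdrawal arrays were all under 16 (Plcd4, Ccsap, Csf3r, Prss35, Mrc1, Cbr3 and Ptprd). The median of the other 55 was 73.2% at 4 h on the log2 scale, and 6.11% at 2 h, a value that the rule keeps low. At 4 h, 22 of them had over 90% of the difference, 21 had 50% to 90% and 12 had under 50%. In 15 members the 4 h mean was above the 8 h mean, led by Tcf7l2 at 272%, Hivep2 at 166%, Dgkg at 145% and Iqsec3 at 143%. At the other end stood Zfp354a at -8.74%, Gpd1l1 at -6.21%, Hs3st1 at 1.63%, Gpd2 at 10.9%, Arg2 at 12.7% and Gng2 at 15.7%. Role medians were 110% for transcription and chromatin, 94.3% for signalling, 88.8% for surface, 77.4% for cytoskeleton and 63% for secreted proteins. Of the 9 enzymes, 4 lay under 20% and 5 over 70%. In the fit, 20 of all 62 members were higher at 8 h than at 4 h (3.56% of all tested probe sets) and 3 were lower (6.1%). Since withdrawal and 8 h arrays entered the rule, these percentages are a description.

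**Figure D4:**
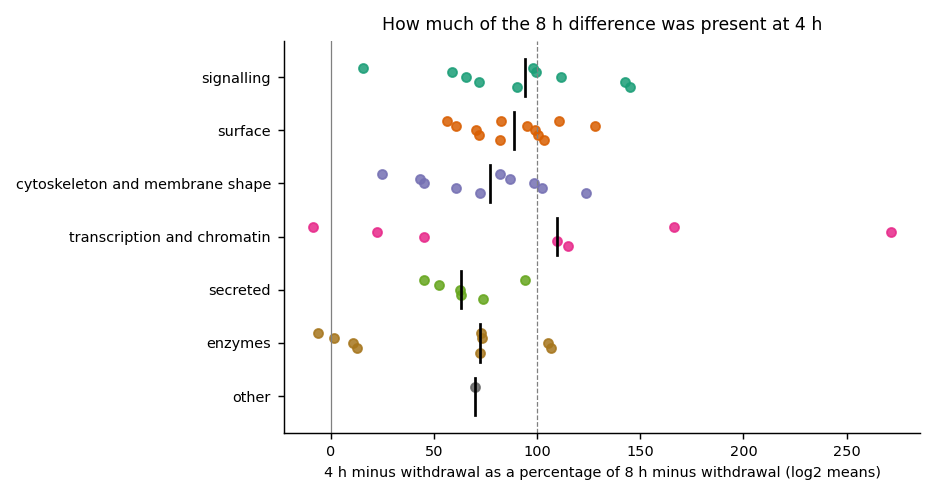
The 4 h minus withdrawal difference of 55 members as a percentage of its 8 h minus withdrawal difference (log2 means), by role, with role medians as bars. The 9 enzymes fall into 4 under 20% and 5 over 70%, and 4 of 7 transcription and chromatin genes lie over 100%.

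At 8 h the members stood on both sides of control. The 8 h mean was within 0.3 of the control mean on the log2 scale for 23 members, among them Tec, Dact2, Procr, Tacc2, Dmkn and Gpd1l1. The share of all tested genes within that range was not counted, so no return to control is read from it. The limma fit placed 26 members above control, where 4.83% of all tested probe sets were, and 6 below, where 7.49% were. Pcdh19 was 3.14-fold above control, Igsf5 2.76-fold, Iqsec3 2.55-fold and Hivep2 2.39-fold. The members that stayed lowest against control were Csf3r (1.57-fold below), Cpn1 (1.48-fold), Arg2 (1.47-fold), Mmp9 (1.44-fold), Smox (1.42-fold) and Reep1 (1.37-fold). The 8 h arrays chose the members as high, so the direction of these counts is not read.

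The level of 4 members moved with the mesenchymal markers within groups. In a fit with the mean of the 12 markers as a covariate, the slope was past the threshold for Pcdh19, a protocadherin (2.04 log2 units per unit of the marker mean), the tubulin gene Tubb6 (1.76), the membrane protein gene Emp3 (1.11) and Pea15, which binds ERK and holds it in the cytoplasm (0.90). It was positive in all 4, with 2.43% of tested probe sets positive and 0.435% negative. Pcdh19 stood at 53.2, 62.9 and 33.8 in control, 22.8, 75.7 and 58.7 after withdrawal, 61.4, 121 and 117 at 4 h and 156, 165 and 135 at 8 h. Emp3 had 437, 531 and 513 in control, 205, 406 and 393 after withdrawal, 536, 764 and 843 at 4 h and 919.6, 1003 and 1006 at 8 h. Tubb6 had 639, 925 and 566 in control, 309.6, 661 and 748 after withdrawal, 474, 802 and 873 at 4 h and 949, 1033 and 929 at 8 h. The lowest array of withdrawal and of 4 h was replicate 1 for all of these genes, the replicate with the lowest marker mean in both groups (7.65 and 7.68).

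Against control, none of these 4 passed the test at 4 h (adjusted p = 0.0701 for Pcdh19, 0.0921 for Emp3, 0.997 for Tubb6 and 0.73 for Pea15). Pcdh19 and Emp3 passed without withdrawal replicate 1 (adjusted p = 0.0146 and 0.00994) or 4 h replicate 1 (adjusted p = 0.0314 and 0.033), and Pcdh19 with array weights (adjusted p = 0.0319). With the marker mean as a covariate Pcdh19, Emp3 and Tubb6 passed, Tubb6 with its log2 difference at 0.45 in place of -0.00. Without withdrawal replicate 1, the 8 h minus withdrawal difference was 1.19 in place of 1.70 for Pcdh19, 1.29 in place of 1.61 for Emp3, 0.67 in place of 0.91 for Pea15 and 0.46 in place of 0.86 for Tubb6. With the covariate, 58 of 62 members were at or over 0.8 at 8 h, and 51 also under 0.3 at 2 h. Those differences chose the members, so the counts are a description. The marker mean was itself lowest at 2 h (7.68) and highest at 8 h (8.34), so the covariate is tied to the groups. The part of mesenchymal cells in these values was not tested.

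**Figure D5:**
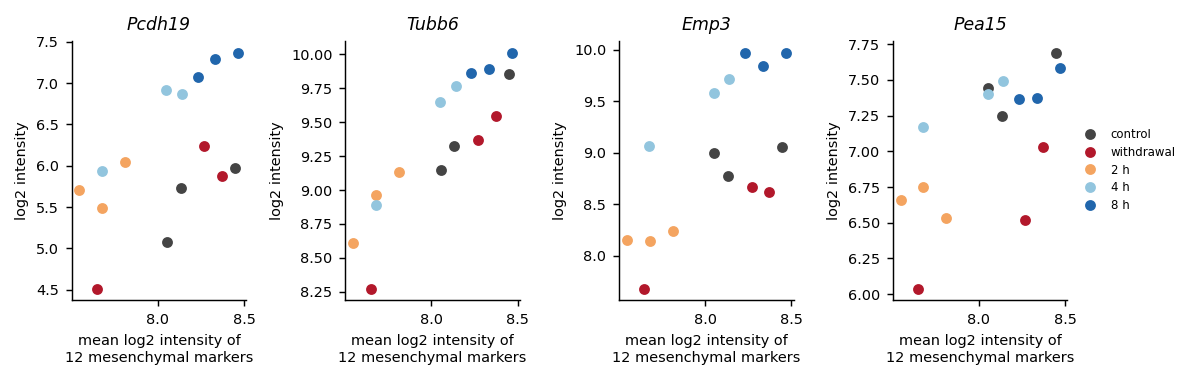
Log2 intensity of Pcdh19, Tubb6, Emp3 and Pea15 in the 15 arrays (y axis, each panel its own scale) against the 12 mesenchymal markers' mean log2 intensity (x axis), coloured by group. In each panel the withdrawal array farthest left, at a marker mean of 7.65, is also the lowest of its group.

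Other probe sets bear on a few members. Of the 62 genes, 10 had a further 13 tested probe sets, all dimmer. The 8 h mean was at least 0.5 above withdrawal for 10 of the 13 and at least 0.8 above for 5. The 2 h mean was over the limit of 0.3 for 3, at 0.54 for a set of Mkrn1, 0.41 for that of Tubb6 and 0.33 for that of Bin2, and 3 of the 13 met both conditions. Both further sets of Medag stood near 0 (-0.20 and 0.02). The 3 further sets of Mkrn1 were lower at 4 h than in control, at log2 differences of -0.44 to -0.53, near its brightest one at -0.46. That of Tubb6 stood at 0.43.

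The thresholds fell within a continuous range. Just inside the 8 h threshold lay Zfp354a and Krt18 (both 0.81), Tspan9 (0.82), Vasp and Ptprd (both 0.83), and just outside it Mbnl1 (0.80 after rounding), St6gal1, Cltb, Cdh11 and Rgs3 (all 0.79). Just inside the 2 h threshold lay Hivep2 (0.29), Adss2 and Dgkg (both 0.27), Plcd4 (0.26) and Ptprn (0.24). Just outside it were Gypc (0.34), Lmbr1l, Ddr1, Kdm6b (all 0.35) and Trpv2 (0.35). Of the members, 46 had every array at or over 16 and 8 had at least 1 group wholly under it.

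Lists of genes known from growth factor responses and cell adhesion were set beside the members. Of 33 genes of the delayed growth factor response, 18 were tested, including the members Timp1 and Mmp9. The rule fixed Timp1 and Mmp9 as higher at 8 h. Of the other 16, 10 were higher and 2 lower at 8 h against withdrawal (9.62% and 15.4% of all tested probe sets), with a median log2 difference of 0.55 against -0.04 over all tested genes. Of all 18, 7 rose and 2 fell at 4 h against control (median 0.18), where 11.2% and 10.4% of all tested probe sets did. The receptor gene Tnfrsf12a rose 2.74-fold (adjusted p = 1.6e-06), the endothelial growth factor gene Vegfa 2.28-fold (adjusted p = 9.68e-06) and the AP-1 gene Fosl1 1.76-fold (adjusted p = 0.000137). All of these were already above withdrawal at 2 h, by log2 differences of 1.19, 1.37 and 0.80, past the members' limit of 0.3. Of the 16 genes outside the set, 6 were higher and 0 lower at 2 h against withdrawal (11.9% and 14.2% of all tested probe sets). Of 30 actin cytoskeleton genes that SRF and its MRTF cofactors are known to drive, 20 were tested and none is a member. At 4 h against control 10 rose and 2 fell. Zyx and Vcl of focal adhesions rose 1.52- and 1.63-fold (adjusted p = 1.17e-05 and 3.01e-05), while Lima1 and Csrp1 fell 1.44- and 1.57-fold (adjusted p = 2.62e-05 and 7.81e-05). Zyx and Vcl were likewise above withdrawal at 2 h (log2 0.85 and 0.82), and at 8 h stood at 0.64 and 0.07. After withdrawal Csrp1 was already at -0.60 against control, and Lima1 at -0.0044. At 8 h against withdrawal 8 of the 20 were higher and 2 lower, and 6 in all passed without withdrawal replicate 1. Of 29 integrins and their ligands, 13 were tested and none is a member. At 4 h against control 3 rose and 4 fell: the laminin gene Lama5 rose 1.67-fold, and Cd9, Itgb5 and Itga6 fell 1.44-, 1.62- and 1.40-fold (adjusted p = 3.42e-05, 4.44e-06, 2.34e-05 and 0.000114). After withdrawal Lama5, Cd9, Itgb5 and Itga6 already stood at log2 differences of 0.64, -0.37, -0.39 and -0.41 from control. From withdrawal to 4 h they differed by 0.10, -0.15, -0.30 and -0.07. At 8 h against withdrawal 4 of the 13 were higher and 1 lower. The total was 3 without withdrawal replicate 1 or 8 h replicate 2, and 2 without withdrawal replicate 2 or 8 h replicate 1.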

How the data were processed

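Total RNA of 15 cultures was measured on 15 single-colour oligonucleotide arrays. The authors deposited a table of probe set intensity values on a linear scale, made with GCRMA and Partek 6.3 per the submitters' processing notes, with no role or order named. That the scale is linear follows from the range of the values. GCRMA in general estimates background from probe sequence, so low intensities depend on that estimate. The number of arrays, 3 in each group, limits the precision.

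The deposited intensities were log2-transformed and not normalized again. After removal of 57 control probe sets, 15856 of 31099 passed the filter (log2 of at least 4 on at least 3 arrays). Gene names came from the platform annotation, updated through a RefSeq table of GRCr8 used for names; 20832 probe sets had 1 symbol, of which 20764 matched, 436 had several and 9831 had none. The fit used limma 3.58.1 under R 4.3.3, with lmFit on 5 group means, eBayes with an intensity trend and all 15 arrays. P-values, two-sided, carry a Benjamini-Hochberg adjustment over the tested probe sets within a comparison, with a threshold of 0.05. A fold change is the ratio of the groups' geometric means, SE is that of the limma log2 difference, and per-array values are linear intensities in replicate order. Where a group was wholly under 16, the fold is a lower bound against the higher of 16 and each array's value. The fit was tested on simulated data.

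The members, roles, marker lists and gene lists were chosen with earlier results of these data known. Named were the 20 members with the largest 8 h minus withdrawal difference, at 4 h against control the 8 that rose most and the 8 that fell most, the 8 with the largest and the 8 with the smallest share of the 8 h difference at 4 h, the 8 farthest either way from control at 8 h, and 5 genes on either side of each threshold. Up to 4 genes of each list with the smallest adjusted p were added, and members were named further within their roles; the other members, with their full values, were chosen after their values were seen. Sphk1 of the delayed response list is left out because its control arrays were under 16. Alternatives were other filters, a floor, other normalizations, no trend, array weights, fewer groups, no multi-target probe sets, a replicate block, a marker covariate and arrays left out.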

Additional observations from a re-analysis of the deposited data

How the results depend on the processing

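With an 8 h threshold of 1.0 in place of 0.8 the set held 31 genes, and with 0.6 it held 128. Leaving out 1 array of withdrawal, 2 h or 8 h in turn gave 55 to 77, of which 49 to 61 were among the 62. Without withdrawal replicate 2 the set held 65 genes with 49 shared, and Hivep2, Adss2, Bin1, Heg1 and Plcd4 were among those lost. At 4 h against control, the number of members above control was 15 to 19 and below it 11 to 16 over all settings tried, and 15 to 18 and 12 to 16 when 1 array was left out. Over all tested probe sets, fitting only these groups gave 1014 higher and 1011 lower, and leaving out replicate 1 of control, withdrawal and 4 h together gave 1162 higher; these fits rest on fewer arrays. For the 62 members, 1666 values over 27 settings kept direction and side of the threshold in 1611 cases, lost the threshold in 38, passed it in 16 and reversed in 1, which was Tubb6 at 0.45 with the mesenchymal covariate. In all 15 members changed call under some setting. Of the actin cytoskeleton list, 6 to 11 genes passed at 8 h against withdrawal when 1 array was left out, and of the integrin list 2 to 5. The integrin count was 3 without the low-value filter, with the covariate or without the 3 arrays; the cause was not tested. The replicate number as a block gave 18 members above control, Emp3 and Pcdh19 being added (adjusted p = 0.0241 and 0.0498), and 16 below, with 22.7% of all tested probe sets past the threshold. Same-numbered control and 4 h arrays deviated together at correlations of 0.24, 0.29 and 0.08, and differently numbered ones at -0.31 to 0.11. Control replicate 3 went best with another number, though by little (0.11 against 0.08), so the main fit did not pair them. Whether equal numbers mark a shared batch is not given, and the other groups were not compared in this way. Signals near the filter level of 16 limit what can be said of Plcd4, Ptprd, Ccsap, Csf3r, Mrc1, Cbr3, Hs3st1, Prss35 and Igsf5. The same holds for Krt18 and Cacna1h, which left the set with values under 16 set to 16. It also holds for Jph3 and Zfp354a, which left it with a filter at log2 5.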
